A study of Homo sapiens with 12 samples.

Results

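The 9 genes described here handle or answer retinoic acid, the active acid form of vitamin A. They were listed by name, from 60617 genes with a TPM value (a transcript level corrected for gene length and sequencing depth), and all 9 were found. STRA6 is the cell surface receptor through which retinol enters the cell. CRABP1 and CRABP2 bind retinoic acid in the cytoplasm. DHRS3 reduces retinaldehyde back to retinol. CYP26A1 and CYP26B1 are cytochrome P450 enzymes that break retinoic acid down, and RARA, RARB and RARG are its nuclear receptors.

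Cells take up retinol, oxidise it to retinaldehyde and then to retinoic acid, which CRABP2 carries to the nucleus. There the receptors sit on DNA as partners of the retinoid X receptors and switch genes on when the ligand binds. CYP26A1, RARB and DHRS3 are themselves textbook targets of the receptors, so the pathway feeds back on the level of its own ligand. In the early embryo and in pluripotent stem cells, retinoic acid is known for driving exit from pluripotency and for giving neural tissue a posterior character.

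RNA-Seq was performed on 201B7, a human induced pluripotent stem cell (iPSC) line reprogrammed from skin fibroblasts, cultured in 4 conditions with 3 libraries each and harvested on Day 5. Cond 1 was the control, kept in StemFit maintenance medium. Cond 2 (low nutrient) received StemFit that had been heated at 56 °C for 30 min. Cond 3 (differentiation) received DMEM with 10% fetal bovine serum (FBS), non-essential amino acids and GlutaMax. Per the study, both media were begun after seeding, the serum medium on a later day than the heated medium. Exposure before harvest was therefore shorter in Cond 3, and the comparisons with Cond 1 differ in its length as well as in medium. In Cond 4 (physical stimulus) the cells were pipetted 20 times at passaging and then kept as in Cond 1. All cells came from a single line, and the replicates are called technical in the study, so p-values measure only the spread between these cultures. The labels and methods name no added retinoid in any condition. They do not give the retinoid content of StemFit, heated or not, or of the serum medium, so retinoid supply may differ between conditions.

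Library totals ran from 16441148 to 21871503 counted reads, with a median of 18752394. The list of pluripotency markers held 12 genes and left out POU5F1 (OCT4). All 12 were above 1 TPM on average in each condition. Their summed level was 8979 to 9277 TPM in Cond 1 and 7611 to 8752 in Cond 2. It was 9155 to 9894 TPM in Cond 3 and 8827 to 9334 in Cond 4. PODXL, LIN28A and DNMT3B were the most abundant of them, at 1939, 1689 and 1371 TPM in Cond 1, and dominate the sums. Singly, 4 of the 12 were called higher and 6 lower in Cond 2, and 5 higher and 4 lower in Cond 3. Of all genes tested, 10.8% were called higher and 10.1% lower in Cond 2, and 19.5% and 18.8% in Cond 3. NANOG stood at 45.9 TPM with the control medium, 22.9 TPM with heated medium and 10.5 TPM with serum. The study reports lower POU5F1 expression with heated medium than in the control, and no change with serum. The sums above therefore do not show that pluripotency was intact. The labels name skin as the tissue. COL1A1 stood at 246 TPM in Cond 1, but the fibroblast genes DCN and LUM were at or near 0 (0 and 0.0529 TPM).

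The sequences on which the receptors sit are shown first. The receptors bind pairs of hexamers, and a direct repeat with 5 bases between (DR5) is the best known arrangement. RefSeq promoter windows (GRCh38.p14, 250 bases before to 50 after each start site) were searched on both strands for hexamers repeated in the same direction. The hexamers were AGGTCA, the consensus of these receptors, its variant AGTTCA, and likewise the forms GGGTCA and, as in the RARB promoter, GGTTCA. All 9 genes were matched, with 21 windows. DR5 was found for CYP26A1 and RARB and for none of the other 7 genes, against 31 of 34943 windows (0.0887%) over all genes. Both genes are textbook targets, and the hexamers searched include the form of the RARB promoter. The share over all genes is therefore a description and no test of enrichment. Repeats with 2 bases or 1 base between (DR2, DR1) were found in no window of the 9 genes, against 0.0372% and 0.132% of all windows. Of the other pathway genes described further below, 52 were matched, with 82 windows, and none held DR5, DR2 or DR1. In the lines below, the hexamers and the 5 bases between them are in capitals.
CYP26A1, chr10:93073797-93073825: taaagaTGAACTTTGGGTGAACTaattgt
RARB, chr3:25428204-25428232: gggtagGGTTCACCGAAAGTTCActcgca
Both genes lie on the forward strand. The CYP26A1 repeat reads on the opposite strand, 90 to 74 bases before the start site of that window. The RARB repeat reads on the gene's own strand, 53 to 37 bases before the start site. Such a match is a string of letters in a window, and the RNA data do not show whether a receptor was bound there.

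The members differed widely in level before any comparison (the plot of TPM by library shows all 9). CRABP2 was the most abundant, at 990 ± 113 TPM in Cond 1 (SD, n = 3), above 99.5% of the genes tested. CRABP1 followed at 299 ± 18.5 TPM. RARG, at 63.7 ± 6.43 TPM, was the leading receptor, and DHRS3 stood at 31.9 ± 1.27 TPM. CYP26A1 (19.2 ± 4.74 TPM), RARA (12.8 ± 0.883 TPM) and STRA6 (6.46 TPM) were lower. CYP26A1 and RARA libraries did not overlap in Cond 1, with lowest CYP26A1 at 14.4 TPM and highest RARA at 13.5 TPM. CYP26B1 and RARB were close to absence, at 0 to 18 and 0 to 29 reads per library over the 4 conditions. RARB did not pass the filter on low counts, so 8 of the 9 genes entered the test across 17747 genes.

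**Figure D1:**
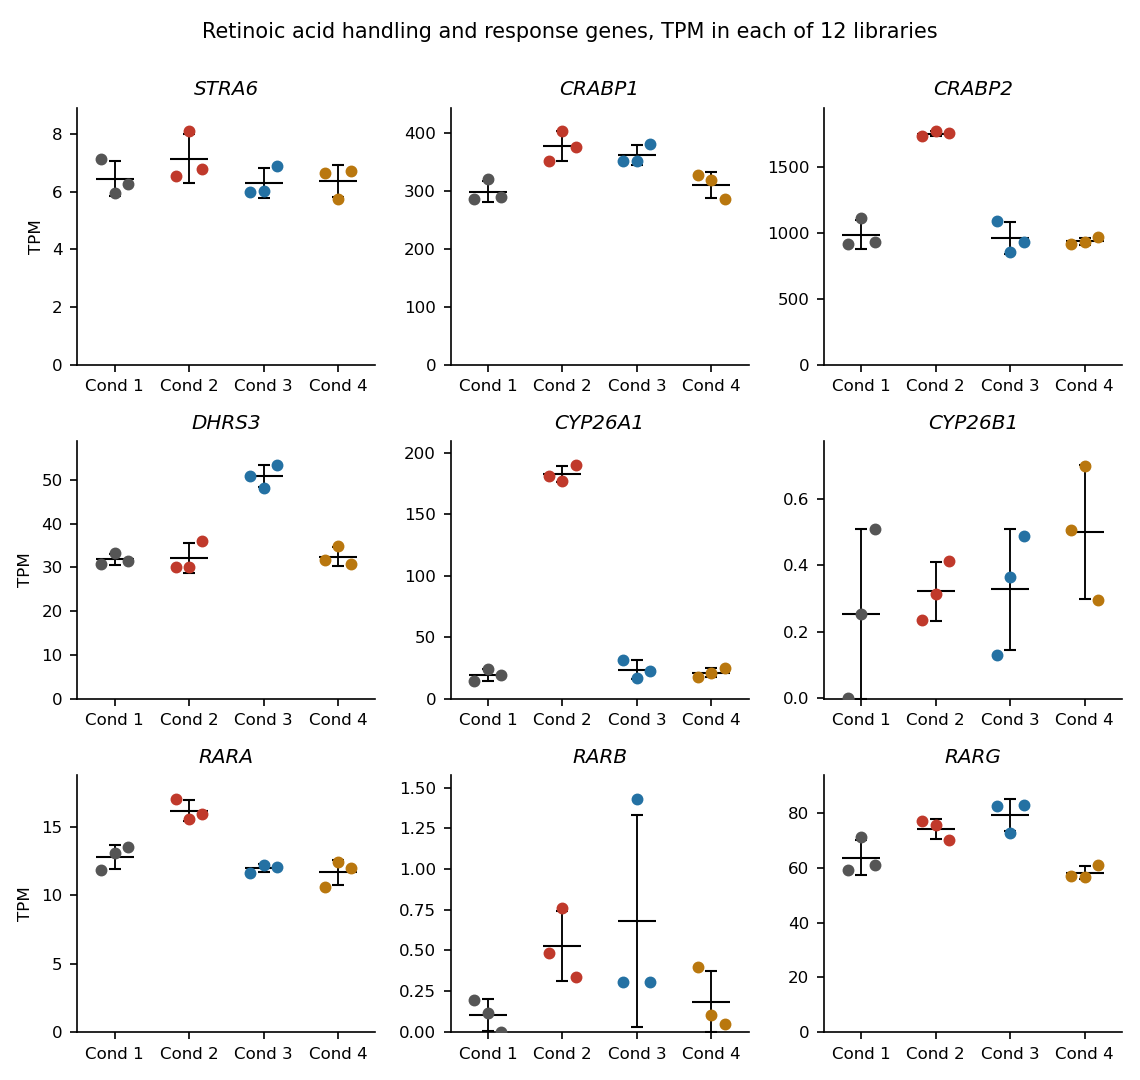
TPM (vertical axis, a separate scale for each gene) of the 9 genes in the 3 libraries of each condition (points), with the mean (wide bar) and SD (error bar). CYP26A1 and CRABP2 are high in the 3 Cond 2 libraries only (177 to 190 and 1737 to 1774 TPM), DHRS3 is high in the 3 Cond 3 libraries (48.3 to 53.4 TPM), and Cond 4 lies among the Cond 1 points for most genes.

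Heat-treated medium (Cond 2, low nutrient by its label) was compared with the control to ask how the 9 genes differed between these cultures. CYP26A1, the enzyme that clears retinoic acid, rose the most of the 9 genes. CRABP2 and CRABP1, the binding proteins, rose by smaller amounts, and none of the 8 tested genes fell. Over all genes tested, 10.8% were called higher and 10.1% lower in Cond 2 (adjusted p under 0.05, edgeR's quasi-likelihood test with Benjamini-Hochberg adjustment). Among the 8 genes, 3 were higher and 0 lower, and their median log2 fold change was 0.23 against 0.00018 over all genes. The members were chosen with earlier results of these data known. Their counts and medians beside those of all genes are therefore a description, here and in the other comparisons.

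CYP26A1 was at 14.4, 23.9 and 19.3 TPM in the Cond 1 libraries and at 181, 177 and 190 TPM in Cond 2. The lowest Cond 2 library thus lay far above the highest control. Mean TPM was 9.51-fold higher (log2 fold change 3.17 in the count test, SE 0.169, adjusted p = 2.81e-12), the 42nd highest of 17747. Only 4.34% of genes passed a fold change of 2 in either direction together with the adjusted p, and CYP26A1 was the single member to do so. It moved from above 60.3% of tested genes in Cond 1 to above 95% in Cond 2. The counts behind these levels were 235 to 336 reads in Cond 1 and 2708 to 2997 in Cond 2, so the call does not rest on few reads. Leaving out any 1 library kept the rise between 2.99 and 3.34 on the log2 scale.

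CRABP2, which delivers retinoic acid to its receptors, was at 915, 1120 and 936 TPM in Cond 1 and at 1737, 1774 and 1764 TPM in Cond 2. The groups did not overlap. The fitted rise was 1.67-fold (log2 0.74, SE 0.0729, adjusted p = 6.56e-08). CRABP1, its close relative, was at 287, 320 and 290 TPM in Cond 1 and at 352, 404 and 376 TPM in Cond 2, again without overlap. It rose by 0.25 on the log2 scale (SE 0.0692, adjusted p = 0.0114), a call that was lost without replicate 1 of Cond 1 (adjusted p = 0.0694) or replicate 2 of Cond 2 (adjusted p = 0.0787). The CRABP2 to CRABP1 ratio of TPM went from 3.30 ± 0.166 to 4.67 ± 0.270 (SD, n = 3), with no overlap between libraries (exact permutation p = 0.1, two-sided, the smallest that 3 against 3 allows).

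Of the receptors, RARA was at 11.8, 13.1 and 13.5 TPM in Cond 1 and at 17.1, 15.6 and 15.9 TPM in Cond 2. The groups did not overlap in TPM, yet the count test did not call RARA (log2 0.25, SE 0.109, adjusted p = 0.112). limma on log2(TPM + 1) did, with an adjusted p of 0.0259. RARG was at 59.1, 71.0 and 60.9 TPM in Cond 1 and at 76.9, 75.5 and 70.0 TPM in Cond 2, which overlapped by 1 library on each side (log2 0.14, SE 0.0744, adjusted p = 0.224). The receptors summed to 76.6 ± 6.82 TPM in Cond 1 and 90.8 ± 4.15 TPM in Cond 2, with no overlap (exact permutation p = 0.1), and RARG made up 83.1% and 81.6% of that sum.

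RARB, the receptor gene with the DR5 repeat printed above, had 4, 2 and 0 reads in the Cond 1 libraries and 9, 16 and 6 in Cond 2. The groups did not overlap, but the sums were only 6 and 31 reads. Fitted without the filter on low counts, the log2 fold change was 2.22 (SE 0.855, adjusted p = 0.0798). RARB therefore pointed the same way as CYP26A1 without passing the threshold.

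The remaining members gave no call in Cond 2. DHRS3 was at 30.8, 33.3 and 31.6 TPM in Cond 1 and at 30.1, 30.1 and 36.0 TPM in Cond 2 (log2 -0.079, SE 0.0908, adjusted p = 0.609). DHRS3 and CYP26A1 are both known targets of the receptors, and the CYP26A1 to DHRS3 ratio of TPM went from 0.599 ± 0.126 to 5.72 ± 0.390 (SD, n = 3; exact permutation p = 0.1). STRA6 was between 5.97 and 7.12 TPM in Cond 1 and between 6.55 and 8.10 TPM in Cond 2 (adjusted p = 0.792). CYP26B1 stayed under 0.52 TPM in both, with an SE of 0.768 on the log2 scale, so a difference was not detectable at this depth.

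Markers of another cell type moved with these genes. Of all genes tested, 10.8% were called higher and 10.1% lower in Cond 2. Of 10 neuroectoderm markers, 9 were tested and 8 were called higher in Cond 2, with a summed level of 111 to 138 TPM in Cond 1 and 755 to 1126 TPM in Cond 2. LHX5 went from 7.93 to 262 TPM, HESX1 from 17.0 to 172 TPM and OTX2 from 98.5 to 318 TPM, all of them genes of the anterior neural plate. Other markers of the list stayed near absence in Cond 2: PAX6, though called higher, was at 0.225 TPM, and SOX1, not tested, at 0.259 TPM. Surface ectoderm and amnion markers were at 28.7 to 32.6 TPM in Cond 1 and 41.7 to 79.2 TPM in Cond 2 in sum, with 5 of 6 tested called higher and the other, GABRP, lower (6.59 to 0.293 TPM). The hindbrain and posterior neural markers summed to 23.4 to 25.7 TPM in Cond 1 and 9.89 to 12.8 TPM in Cond 2 (2 of 4 tested called lower). The part of these cells in the CYP26A1 and CRABP2 values was not tested. In bulk RNA, more cells of a type and more RNA per cell cannot be told apart.

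Serum medium (Cond 3) was compared with the same Cond 1 libraries, so both comparisons share their controls. Here DHRS3 rose the most of the 8 tested genes, with RARG and CRABP1, while CYP26A1 and CRABP2 were not called. Over all genes tested, 19.5% were called higher and 18.8% lower in Cond 3, and 8.16% passed both the adjusted p and a fold change of 2. Among the 8 members, 3 were higher, 0 lower and 0 above 2-fold. Their median log2 fold change was 0.26 against -0.0064 over all genes.

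DHRS3, the retinaldehyde reductase, was at 51.0, 48.3 and 53.4 TPM in Cond 3, all above the highest control of 33.3 TPM. The rise was 0.65 on the log2 scale (SE 0.0888, adjusted p = 4.10e-06), and it stayed between 0.61 and 0.68 with each library left out. RARG was at 82.5, 72.5 and 82.8 TPM against a highest control of 71.0 TPM, a narrow gap (log2 0.29, SE 0.0741, adjusted p = 0.00341). CRABP1 was at 351, 352 and 382 TPM, above the highest control of 320 TPM, and rose by 0.25 on the log2 scale (SE 0.0691, adjusted p = 0.00656).

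CYP26A1 was at 31.8, 16.5 and 22.4 TPM in Cond 3, on both sides of the controls (log2 0.28, SE 0.177, adjusted p = 0.232). The libraries of Cond 3 decided this value. Without replicate 2 the log2 fold change was 0.48 and passed the threshold (adjusted p = 0.0309), and without replicate 1 it was -0.00018. The filter on low counts mattered too, since CYP26A1 was called without it (log2 0.27, adjusted p = 0.0312).

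CRABP2 was at 1094, 858 and 937 TPM in Cond 3 (log2 -0.067, SE 0.0729, adjusted p = 0.509). RARA was at 11.7, 12.2 and 12.1 TPM (log2 -0.13, SE 0.110, adjusted p = 0.403) and STRA6 at 5.98, 6.03 and 6.90 TPM (log2 -0.064, SE 0.124, adjusted p = 0.729). The libraries of all 3 genes overlapped with the controls. CYP26B1 was at 0.130, 0.364 and 0.488 TPM.

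RARB had 7, 29 and 6 reads in the Cond 3 libraries against 4, 2 and 0 in Cond 1. Of the 42 reads in Cond 3, 29 came from replicate 2. The groups did not overlap, and without the filter on low counts RARB was called (log2 2.64, SE 0.843, adjusted p = 0.0118), while limma on log2(TPM + 1) did not call it (adjusted p = 0.169). The level remained low, at 0.682 ± 0.650 TPM (SD, n = 3).

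The makeup of the receptors shifted a little in Cond 3. RARA made up 16.8% of the summed receptor TPM in Cond 1 and 13.1% in Cond 3, with no overlap between libraries (exact permutation p = 0.1). The sum itself was 91.9 ± 5.01 TPM, also above every control library, though narrowly (lowest 86.2 TPM against a highest control of 84.2 TPM). The CRABP2 to CRABP1 ratio was 2.67 ± 0.386 against 3.30 ± 0.166 in Cond 1, without overlap (exact permutation p = 0.1), opposite in direction to Cond 2.

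Fibroblast markers summed to 633 to 676 TPM in Cond 3 and 434 to 464 TPM in Cond 1, with COL1A1 at 436 TPM against 246 TPM, while DCN was listed at 0 in the 6 libraries. Of 7 tested, 3 were called higher and 1 lower, against 19.5% higher and 18.8% lower of all genes tested in Cond 3. The lower one was THY1, from 141 to 48.9 TPM (adjusted p = 3.63e-13 in edgeR's test). Neuroectoderm markers summed to 243 to 292 TPM in Cond 3, with 3 of 9 tested called higher. Their part in the DHRS3, RARG and CRABP1 values was not tested.

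A direct contrast of Cond 3 with Cond 2 asked whether the 2 cultures differed. Per the study, the heated medium was given from an earlier day than the serum medium, so medium and length of exposure cannot be told apart. Over all genes tested, 19.0% were called higher in Cond 3 and 19.2% lower, and 8.77% also passed a fold change of 2. Of the 8 members, 1 was higher (DHRS3) and 3 were lower (CYP26A1, CRABP2 and RARA). CYP26A1 was 7.42-fold lower in Cond 3 (log2 -2.89, SE 0.164, adjusted p = 4.70e-12), the 65th lowest of 17747 genes. CRABP2 fell by 0.81 on the log2 scale (SE 0.0729, adjusted p = 8.83e-09) and RARA by 0.38 (SE 0.109, adjusted p = 0.00859). DHRS3 was higher by 0.73 (SE 0.0890, adjusted p = 8.83e-07). The libraries of these 4 genes did not overlap between the 2 conditions (exact permutation p = 0.1, the smallest that 3 against 3 allows). The share of all genes without overlap was not counted, so this is a description.

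CRABP1 gave nearly the same level in both media, with a log2 difference of -0.0011 (adjusted p = 0.992) and libraries that overlapped. RARG differed by 0.15 (SE 0.0738, adjusted p = 0.106). RARG was called against Cond 1 in Cond 3 and not in Cond 2, but a difference between the 2 media was not shown by this test. It was called under upper-quartile scaling (adjusted p = 0.0446), without replicate 1 of Cond 2 (adjusted p = 0.0470) and without replicate 2 of Cond 3 (adjusted p = 0.0433). STRA6 (log2 -0.12, adjusted p = 0.465) and CYP26B1 (log2 0.076, adjusted p = 0.951) were not called.

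**Figure D2:**
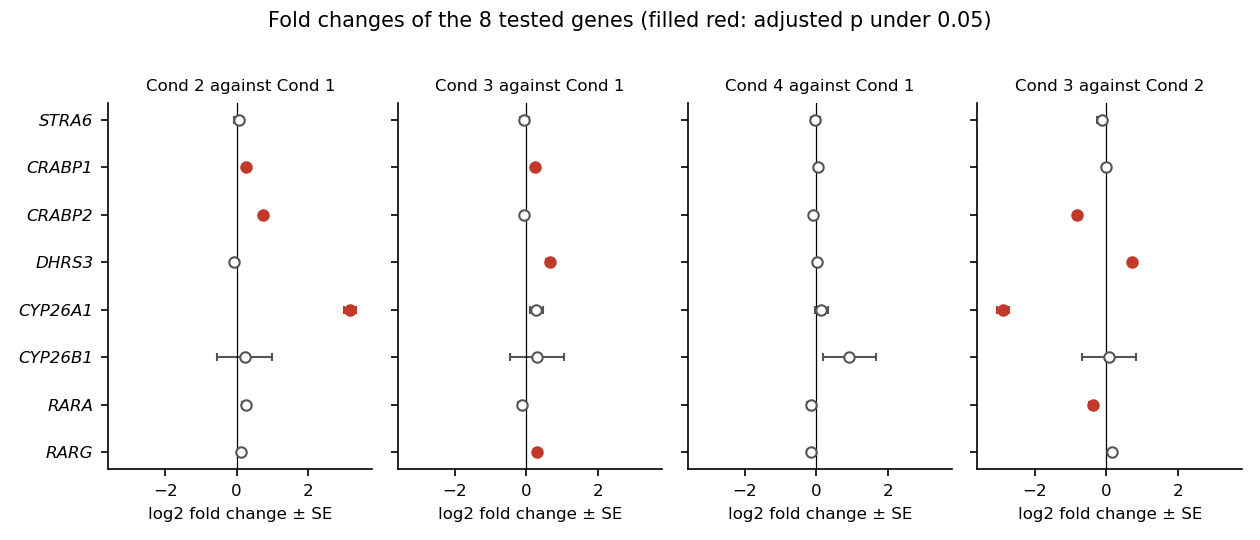
Log2 fold change (horizontal axis) with its SE for the 8 tested genes in the 4 comparisons, from edgeR; filled red points passed an adjusted p of 0.05 and open points did not. CYP26A1 lies at 3.17 in Cond 2 against Cond 1 and at -2.89 in Cond 3 against Cond 2, DHRS3 lies at 0.65 and 0.73 in the 2 panels with Cond 3 in the lead, and no point is filled for Cond 4.

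Repeated pipetting (Cond 4) moved none of the 9 genes past the threshold. Over all genes tested only 0.0225% were called higher and 0.00563% lower, with 0.0169% also above 2-fold, so the members' count of 0 is near the background. At an unadjusted p under 0.05 the count of members was also 0 in edgeR's test, and neither DESeq2 nor limma called any of them. CYP26A1 was at 17.5, 20.7 and 25.1 TPM, CRABP2 at 917, 936 and 970 TPM and DHRS3 at 31.6, 34.9 and 30.9 TPM, all overlapping with Cond 1. RARG was at 57.0, 56.6 and 60.9 TPM and RARA at 10.6 to 12.4 TPM, mostly at or below the controls. RARB had 7, 2 and 1 reads and CYP26B1 was at 0.506, 0.699 and 0.295 TPM. Of the 8 adjusted p-values from edgeR, the lowest was 0.816.

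Some members had neighbours or near copies that share sequence with them, which bears on how firmly their counts can be read. The CYP26A1 gene (ENSG00000095596, chromosome 10, 93073475 to 93077885, GENCODE 44) shares 25.3% of its exon bases with a long non-coding RNA gene on the same strand, which itself held 0 to 3 reads per library. CRABP1 (ENSG00000166426, chromosome 15, 78340353 to 78348225) overlaps by 45.9% of its exon bases a gene of uncertain status on the opposite strand with 1 to 17 reads. RARA shares 11.7% with RARA-AS1 (0 to 9 reads) and 6.14% with a gene of uncertain status (0 to 23 reads), both on the opposite strand. STRA6 shares 6.77% with CCDC33, also on the opposite strand, which held 14 to 47 reads per library. The library kit marks strand, but the strand setting of the counting is not given in the sources used here. CRABP2 (ENSG00000143320, chromosome 1, 156699606 to 156705816) shares no 31-base word with another gene's transcripts, and DHRS3 (ENSG00000162496, chromosome 1, 12567910 to 12618210) shares 0.143% of its words.

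Other genes of the pathway were read from 3 lists, with 79 genes in all, of which 52 were tested. The lists too were chosen with earlier results of these data known, so their counts and medians are a description. In Cond 2, 16 were called higher and 8 lower, and in Cond 3, 20 were higher and 7 lower, against 10.8% higher and 10.1% lower of all genes in Cond 2 and 19.5% and 18.8% in Cond 3. With limma on TPM the lower calls were 4 in each. The lists' medians beside the near-zero median of all genes were 0.13 in Cond 2 and 0.20 in Cond 3. In Cond 4 edgeR called 0 of the 52, with 6 at an unadjusted p under 0.05, and DESeq2 called 1 (NR2F2, 0 reads in Cond 1 and 36 of its 42 Cond 4 reads in replicate 2).

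Among 25 genes of retinol and retinal metabolism, 19 were tested; 3 rose and 5 fell in Cond 2. CYP26C1, the third member of the CYP26 family, was at 1.12, 0.823 and 0.585 TPM in Cond 1 and at 5.42, 3.76 and 4.98 TPM in Cond 2 (log2 2.40, SE 0.396, adjusted p = 8.68e-05). CYP26C1 thus rose as CYP26A1 did, from a far lower level, while CYP26B1 was not called. LRP2 (megalin), which takes up retinol bound to its carrier, was at 2.55, 3.58 and 3.67 TPM in Cond 1 and at 15.1, 17.0 and 17.4 TPM in Cond 2 (log2 2.25, SE 0.129, adjusted p = 8.78e-12). ALDH1A1, which makes retinoic acid from retinaldehyde, fell by 2.12 on the log2 scale (SE 0.387, adjusted p = 0.000266), from 3.03 ± 1.05 TPM to 0.737 ± 0.376 TPM (SD, n = 3). LPL, a lipase, fell by 1.28 (adjusted p = 2.83e-05).

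In Cond 3, 5 genes of this list rose and 4 fell, shares near those of all genes. ALDH1A1 moved the other way, to 6.75 ± 0.593 TPM (log2 1.14, adjusted p = 0.00580), and its direct difference from Cond 2 was 3.26 on the log2 scale (SE 0.371, adjusted p = 3.04e-07). LRAT, which stores retinol as its ester, fell by 1.00 (adjusted p = 1.69e-09): its libraries were at 36.5, 35.3 and 39.5 TPM in Cond 1 and at 17.0, 21.0 and 18.7 TPM in Cond 3. LRP2 rose by 0.87 (adjusted p = 1.40e-05), less than in Cond 2 (direct difference -1.38, adjusted p = 6.25e-09). ALDH1A3, another retinaldehyde dehydrogenase, fell by 0.73 (adjusted p = 0.0257). CYP26C1 was lower in Cond 3 than in heated medium by 2.11 on the log2 scale (adjusted p = 0.000136). Over the whole list 5 genes were higher and 5 lower in that direct contrast.

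Among 23 receptor partners and coregulators, 19 were tested. In Cond 2, 8 rose and 2 fell, and in Cond 3, 9 rose and 0 fell. RXRA, a partner of the retinoic acid receptors, rose in edgeR's test by 0.50 in Cond 2 (adjusted p = 2.63e-06) and 0.53 in Cond 3 (adjusted p = 5.83e-07). Its level went from 22.8 TPM to 34.2 and 33.6 TPM, and the 2 comparisons share the Cond 1 libraries. RXRB and RXRG, also on the list, reached at most 0.0416 and 0.157 TPM in a library. Whether values near 0 in these lists mean absence of the transcript was not tested. The coactivators NCOA2 and NCOA3 rose in Cond 2 by 0.64 (adjusted p = 1.32e-07) and 0.48 (adjusted p = 5.16e-05). FABP5, a fatty acid binding protein that can also bind retinoic acid, fell by 0.48 in Cond 2 (adjusted p = 0.00188) and rose by 0.62 in Cond 3 (adjusted p = 4.06e-05). RORB and RORA, orphan receptors of another branch, rose in Cond 3 by 1.25 (adjusted p = 0.000361) and 0.53 (adjusted p = 0.000253). Cond 3 exceeded Cond 2 for 6 genes of the list, among them FABP5 (1.09, adjusted p = 1.90e-08), RORB (1.63, adjusted p = 2.38e-05) and RORA (0.53, adjusted p = 0.000237), and was below it for 6, NCOA2 among them (-0.48, adjusted p = 4.00e-06).

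The list of 32 retinoic acid responsive genes was mostly silent. Only 14 were tested and 17 were under 1 TPM in every library. The 10 HOX genes of the list, the classical targets of retinoic acid in the embryo, had 0 reads in 11 of the 12 libraries; replicate 2 of Cond 4 held 40 reads on 5 of them. In Cond 2, 5 of the 14 rose and 1 fell. The list gives no direction in which retinoic acid moves each gene, so these counts do not measure a response to it. FGF8, a signal of the early neural plate, rose by 1.53 (SE 0.468, adjusted p = 0.0216), PLAAT4 (also known as RARRES3) by 0.91 (adjusted p = 0.0123) and the receptor tyrosine kinase RET by 0.35 (adjusted p = 0.0164). CDKN1A, an inhibitor of the cell cycle, fell by 0.70 (adjusted p = 0.0208).

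In Cond 3, 6 of the 14 responsive genes rose and 3 fell. TGM2, transglutaminase 2, rose by 1.57 (adjusted p = 0.000330), SKAP2, an adaptor protein, by 1.51 (adjusted p = 9.64e-05) and FGF8 by 1.38 (adjusted p = 0.0231), while CDKN1A fell by 2.19 (adjusted p = 1.05e-07). Set directly against Cond 2, TGM2 was higher by 1.23 (adjusted p = 0.00255) and SKAP2 by 1.52 (adjusted p = 8.92e-05), while CDKN1A was lower by 1.49 (adjusted p = 2.36e-05) and BHLHE40, a transcriptional repressor, by 1.36 (adjusted p = 8.64e-06). In that contrast 3 genes were higher and 4 lower. NR2F2, counted among the responsive genes called higher in both Cond 2 and Cond 3, had 0 reads in Cond 1, 54 in Cond 2 and 21 in Cond 3. Of these reads, 38 in Cond 2 and 13 in Cond 3 came from a single library each, and levels were under 1.3 TPM in each library.

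**Figure D3:**
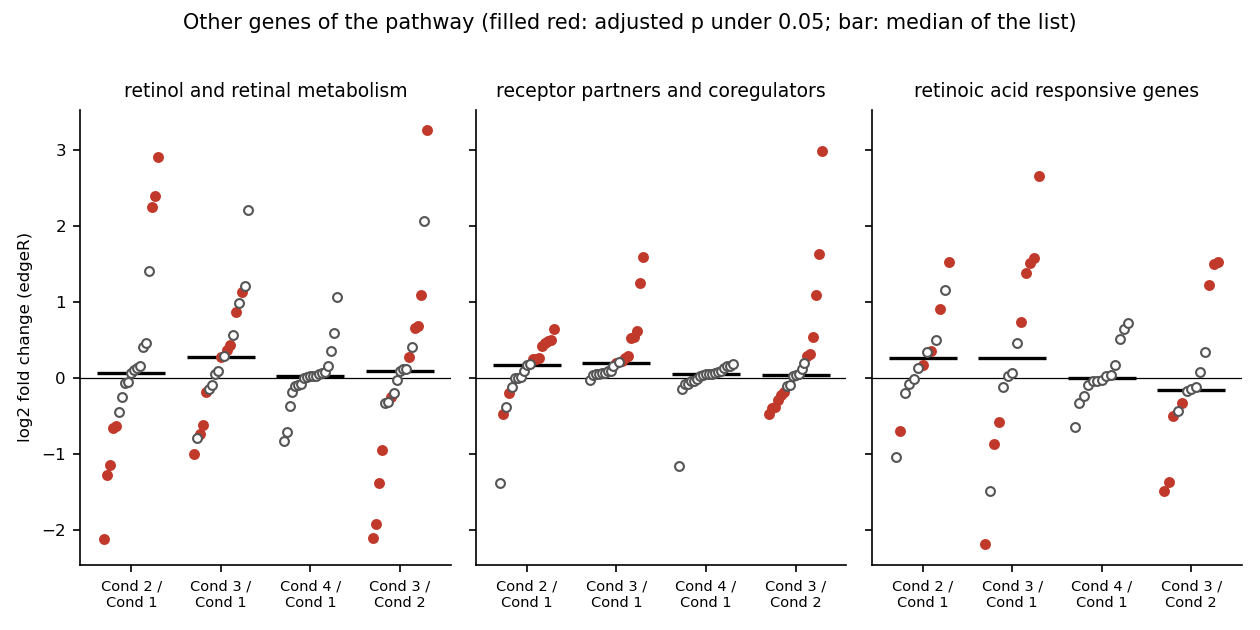
Log2 fold change (vertical axis, edgeR) of the tested genes of 3 pathway lists in the 4 comparisons; each point is a gene in order of its value, filled red where the adjusted p was under 0.05, and the bar is the median of the list (NR2F2, with 0 reads in Cond 1, is not drawn). Called genes lie on both sides of 0 in Cond 2 and Cond 3, except for partners and coregulators in Cond 3 (9 higher, 0 lower), and no point is filled for Cond 4.

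CYP26A1 was the single member above 2-fold against Cond 1, and the genes whose levels were most like its own over the 12 libraries were GPC3, PRTG and CRABP2. Pearson's r of log2 CPM was 0.99, 0.99 and 0.98, as a description, since the 12 libraries fall into 4 groups and Cond 2 stands apart in each of these genes. GPC3 (glypican 3), a proteoglycan of the cell surface, went from 433 ± 11.4 TPM in Cond 1 to 1590 ± 51.5 TPM in Cond 2 (SD, n = 3). It was at 459 and 436 TPM in Cond 3 and Cond 4. PRTG (protogenin), a surface protein of the early neural tube, went from 6.94 ± 1.33 to 46.7 ± 6.68 TPM and was at 9.21 and 7.89 TPM in the other two. Between members, r with CYP26A1 was 0.82 for RARA, 0.52 for CRABP1 and -0.36 for DHRS3.

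**Figure D4:**
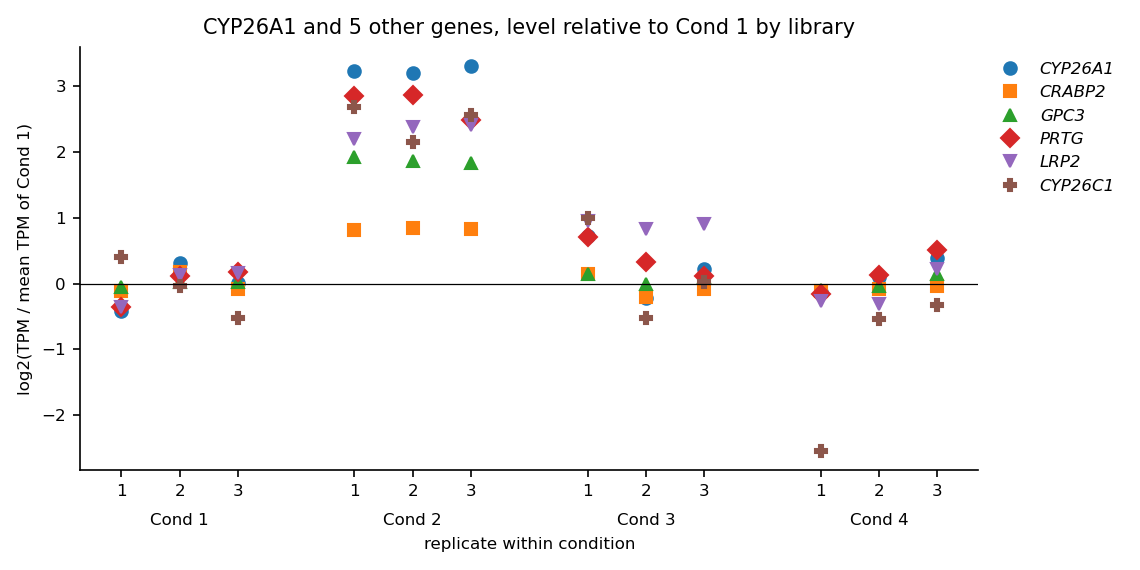
Log2 of TPM relative to the mean of Cond 1 (vertical axis) in each library (horizontal axis, replicates within condition) for CYP26A1, CRABP2, GPC3, PRTG, LRP2 and CYP26C1. All 6 genes lie above 0 in the 3 Cond 2 libraries; in Cond 3, the LRP2 libraries do not overlap with those of Cond 1, at 5.80 to 6.30 TPM against 2.55 to 3.67 TPM in Cond 1.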

How the data were processed

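RNA-Seq of poly(A) RNA was performed on 12 iPSC libraries, 3 in each of 4 conditions, grouped by the submitters' titles. As the methods and processing notes give it, the authors trimmed reads with cutadapt 4.1 and fastp 0.20.1, aligned them to GRCh38 with HISAT2 2.1.0 and counted them per gene with featureCounts; the annotation release, strand setting and treatment of multi-mapping reads are not given in the sources used here. The deposited count table (58575 genes; 5 of 58580 lines were not whole gene rows) holds raw counts, and the deposited TPM table (60617 genes) holds TPM that the authors derived from counts and gene lengths; recomputed from the counts, TPM differed by a relative 1.79e-14 at most. The 2042 genes without a count row, NRIP1 and EP300 among them, were not tested.

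Counts were tested with edgeR 4.0.16 (R 4.3.3; TMM, filterByExpr, quasi-likelihood test, 1 fit over all libraries, Benjamini-Hochberg over 17747 genes); a call is an adjusted p under 0.05. The study used limma. Alternatives were DESeq2 1.42.0, limma 3.58.1 on log2(TPM + 1) and log2(TPM + 0.1), other scalings and filters, the 2 conditions alone, a replicate block and leaving out each library. TPM of single genes was compared by an exact two-sided permutation test. Replicates differed beyond sampling noise (chi-square per gene 4.18 to 10.2), so none was counted as a duplicate.

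The members and lists were chosen with earlier results of these data known. All 9 members are named; of each pathway list, up to 4 genes per comparison with the largest called change and a mean of at least 1 TPM; the 3 genes most like a member that passed 2-fold; and the most abundant markers. NR2F2, NANOG, DCN and LUM were named after their values were seen. One result under this rule is not reported here. Marker lists not given in the report were mesendoderm (6.15 to 12.1, 10.4 to 11.5, 7.86 to 13.1 and 8.38 to 11.9 summed TPM in Cond 1 to Cond 4, CER1, CXCR4 and MIXL1 the most abundant) and endothelial, blood and muscle (4.38 to 7.79, 4.32 to 8.60, 4.75 to 8.89 and 5.39 to 6.26 summed TPM, nearly all DES). Promoter sequences are RefSeq's (GRCh38.p14) and gene spans GENCODE 44's.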

Additional observations from a re-analysis of the deposited data

How the results depend on the processing

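Of 473 log2 fold changes of members recomputed under the alternatives, 434 kept their direction and their side of the threshold, 2 lost and 7 gained a call, and 30 changed sign, none of which had been called; of 240 counts, 229 stayed within 1.5 times. The CYP26A1 and CRABP2 calls in Cond 2 and the DHRS3 call in Cond 3 held under each alternative, over 3.15 to 3.27, 0.72 to 0.83 and 0.64 to 0.67 on the log2 scale apart from left-out libraries. Depth limited CYP26B1 and RARB, which had at most 29 reads in a library. Causes of the changes below were not tested.

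Among the settings other than left-out libraries, DHRS3 in Cond 2 turned to 0.00470 and 0.00472 under limma with pseudocounts 1 and 0.1, and CYP26B1 in Cond 3 against Cond 2 to -0.000681 and -0.0631. CRABP1 in Cond 3 against Cond 2 turned to 0.00562 with DESeq2, 0.0331 with upper-quartile scaling, 0.0252 without scaling and 0.0153 with genes of at least 1 TPM in all libraries. limma called 4 pathway genes lower in Cond 2 and 4 in Cond 3 with either pseudocount, against 8 and 7. Without the low-count filter 5 members were called higher in Cond 3, against 3, and 1 pathway gene in Cond 4, as with DESeq2, against 0. In Cond 3 against Cond 2, upper-quartile scaling called 2 members higher, against 1, and the 1 TPM filter, which tests fewer genes, 9 pathway genes higher, against 14.

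With each library left out, the log2 fold changes that changed sign ran as follows. In Cond 2 they were -0.365 to 1.30 for CYP26B1 and -0.0309 to 0.130 for STRA6. In Cond 3 they were -0.000178 to 0.477 for CYP26A1, -0.290 to 1.38 for CYP26B1, -0.137 to 0.00414 for STRA6 and -0.164 to 0.0249 for CRABP2. In Cond 4 they were -0.0434 to 0.306 for CYP26A1, -0.0439 to 0.0508 for DHRS3, -0.0890 to 0.0353 for STRA6 and -0.145 to 0.00690 for CRABP2. In Cond 3 against Cond 2 they were -0.329 to 0.468 for CYP26B1 and -0.0454 to 0.0410 for CRABP1, and the members called higher ran from 1 to 2.

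The methods put the conditions in wells of the same plate and repeat the arrangement, but no label says that the replicate number marks a plate. Deviations from the group means of libraries with the same number correlated at -0.013 to 0.038 in all 4 comparisons, and several correlated as well with another number. A low correlation over all genes cannot exclude pairing, and the numbers were not blocked in the main fit. With the replicate block, CRABP1 in Cond 3 against Cond 2 turned to 0.000666, 3750 genes in place of 3701 were called in Cond 2 and 6854 in place of 6811 in Cond 3, and no member's call changed.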

Other observations

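Replicate 2 of Cond 4 held reads of genes that were absent from the other 11 libraries, HOX genes among them. At a minimum of 10 reads, 9 genes were present in it with 0 reads in all other libraries, 139 reads in sum: FGF5, HOXB4, HOXB7, MAGEA12, MAGEA6, HORMAD1, GAGE1, HOXC6 and NKX2-6. The same count was 0 to 2 genes in each other library. These genes were found by looking at the values, and no test was run. Without this library, the count of members called in Cond 4 was again 0 in each direction.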
